A study of Mus musculus with 6 samples.

Results

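RUNX1 binding was examined at the 6 genes of the expanding cumulus matrix, Has2, Hapln1, Vcan, Tnfaip6, Ptx3 and Cd44. The genes were grouped by their role in the matrix, and the rule uses no peak value, although earlier results of these data were known when they were chosen. A chromatin immunoprecipitation sequencing (ChIP-seq) peak was assigned to a gene when its summit lay inside the RefSeq gene or within 100 kb of either end. Of the 51515 peaks in 4 libraries, 29 met this rule, and the 6 genes were set beside all 21887 nuclear protein-coding genes. The windows of Hapln1 and Vcan overlap, because the genes lie 43477 bp apart on chromosome 13, and peaks between them were counted once in every sum over the 6 windows.

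The samples were mouse granulosa cells, the somatic cells of the ovarian follicle, from animals of the strain CBA x C57BL/6 F1 aged 21 days. Every mouse had received 5 IU of eCG, a gonadotropin that drives follicle growth. The 6 h group was collected 6 h after 5 IU of hCG, given 46 h after eCG to trigger ovulation. The 0 h group is labelled as pre-ovulatory cells at 0 h after hCG, although the treatment text printed for it is that of the 6 h group. Each time point had 2 RUNX1 ChIP libraries and 1 pooled input, and nothing in the labels says whether the libraries came from separate mice, so the spread between them may be technical.

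Cumulus expansion is the swelling of the layer of granulosa-lineage cells around the oocyte after the ovulatory gonadotropin surge. Has2 builds hyaluronan, a long sugar polymer that is extruded between the cells. Versican (Vcan), a large proteoglycan, and the link protein Hapln1 bind hyaluronan and each other. Tnfaip6 (TSG-6) transfers heavy chains of inter-alpha-trypsin inhibitor onto hyaluronan, and Ptx3, a pentraxin, ties these chains together. Cd44 is the cell-surface receptor that anchors the matrix to the cells. RUNX1 is a DNA-binding transcription factor of the Runt family that is induced in granulosa cells by the ovulatory stimulus and binds TGTGGT and related letters.

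The lists held 948 and 3135 peaks at 0 h and 18761 and 28671 at 6 h (replicates 1 and 2). The genome-wide background recovered from the deposited values, which rises with the number of reads used, was 2.77 and 2.65 reads at 0 h and 2.76 and 2.13 at 6 h. This background differed far less than list length. Read counts were not at hand, and the part of depth in the list lengths was not tested. A region is called replicated below when both libraries of a time point had a peak there, sharing at least 1 bp. The lists hold binding and not expression, so the cell type could not be checked by marker levels. At 6 h, 8 of 8 granulosa, 7 of 8 leukocyte, 4 of 5 endothelial, 4 of 4 theca and 3 of 4 oocyte marker genes had a replicated region in their window, 26 of 29 in all, against 76.7% of all protein-coding genes.

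Promoters with and without a peak are shown first, because the 2 genes with replicated binding in this set both had it at a start site. RefSeq promoters on GRCm38.p6 were found for 5 of the 6 genes, all but Has2. The letters run 5′ to 3′ on the strand of the gene and cover the 250 bases before the listed start. Capitals mark motif letters found on either strand among TGTGGT and TGCGGT (RUNX), TGANTCA (AP-1), AAGGTCA (NR5A monomer site) and TGACGTCA (cAMP response element). No motif overlapped another. The Tnfaip6 stretch (chr2:52037863-52038112, plus strand) and the Vcan stretch (chr13:89742513-89742762, minus strand) each held the summits of both 6 h libraries. The Hapln1 stretch (chr13:89540386-89540635, plus strand) held the TGTGGT motif and no peak.
Tnfaip6: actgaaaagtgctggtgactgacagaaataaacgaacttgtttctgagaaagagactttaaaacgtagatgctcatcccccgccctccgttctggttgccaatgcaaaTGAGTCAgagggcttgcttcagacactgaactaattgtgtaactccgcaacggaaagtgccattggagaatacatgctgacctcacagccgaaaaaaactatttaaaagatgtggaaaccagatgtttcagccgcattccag
Vcan: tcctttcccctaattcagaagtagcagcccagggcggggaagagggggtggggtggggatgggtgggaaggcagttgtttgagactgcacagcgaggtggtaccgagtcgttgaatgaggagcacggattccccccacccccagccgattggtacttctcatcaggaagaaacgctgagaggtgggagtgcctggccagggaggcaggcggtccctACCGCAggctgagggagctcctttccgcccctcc
Hapln1: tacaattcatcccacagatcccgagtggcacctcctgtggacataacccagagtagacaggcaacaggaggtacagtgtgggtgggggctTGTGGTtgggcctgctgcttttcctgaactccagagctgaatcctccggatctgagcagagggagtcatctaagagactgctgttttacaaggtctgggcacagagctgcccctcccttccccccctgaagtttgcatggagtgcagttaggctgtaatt

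The Vcan stretch held TGCGGT, read on the opposite strand as ACCGCA, at 34 to 29 bases before the start. The centre of this motif was 8.50 bp from the summit in 6 h replicate 1 and 13.5 bp from the summit in replicate 2. TGCGGT was present in 5.10% of the 32851 RefSeq windows of this length, and in 15.6% of the 3322 that, like that of Vcan, held the summit of a replicated 6 h region. The Tnfaip6 stretch held TGAGTCA, an AP-1 motif, at 142 to 136 bases before the start, 86.0 and 64.0 bp from the summits of replicates 1 and 2. AP-1 letters were present in 6.75% of all windows and in 3.46% of those with such a summit. Neither RUNX spelling was found in the Tnfaip6 stretch. Hapln1 held TGTGGT at 160 to 155 bases before its start, as did 14.0% of all windows by at least 1 copy, yet no library had a peak there. The stretches of Ptx3 and Cd44 held none of the 5 motifs. A match is only a run of letters, and a missing match says nothing about other spellings. The start listed for Vcan lies inside the longest gene model, which reaches to 89743027, and the start listed for Hapln1 lies inside the model that begins at 89540529.

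Summed over the 6 windows, 0 peaks were found in 0 h replicate 1, 1 in 0 h replicate 2, 9 in 6 h replicate 1 and 19 in 6 h replicate 2. Both 6 h libraries lay above both 0 h libraries. On the scale of log2(peaks + 1) the mean of the 6 h libraries exceeded that of the 0 h libraries by 3.32. An exact permutation test over libraries (2 against 2, two-sided) gave p = 0.333, the smallest value this design allows. With as many peaks taken from each library as the shortest list holds, the difference was 0.50 (exact permutation test, p = 1). Relative to list length, the windows held 0 and 0.319 peaks per 1000 at 0 h and 0.480 and 0.663 per 1000 at 6 h. The difference of 0.412 per 1000 again had no overlap between groups and the same exact permutation p of 0.333. Restricting all lists to a −log10 q of at least 20 reduced it to 0.101 per 1000 (exact permutation test, p = 1).

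The peaks were unevenly spread over the 6 genes, with 19 of the 29 at Tnfaip6 and none at Ptx3. At 6 h, 2 of the 6 genes, Tnfaip6 and Vcan, had a replicated region, against 76.7% of all protein-coding genes. Only these 2 genes of the set also had more peaks in both 6 h libraries than in both 0 h libraries, which held for 73.8% of protein-coding genes. At 0 h, 0 of the 6 had a replicated region, against 13.7% of protein-coding genes. The member windows were 206 to 291 kb long, against a median of 217 kb for protein-coding genes. Only the window of Ptx3, at 206 kb, was below this median. The median number of replicated 6 h regions was 0 over the 6 genes and 3 over all protein-coding genes. The members therefore did not have regions more often than genes at large. By single library, 0 and 1 of the 6 genes had a peak at 0 h (background 14.8% and 39.5%), and 2 and 5 had one at 6 h (background 76.9% and 82.2%). The count of 5 rests on 6 h replicate 2 alone.

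**Figure D1:**
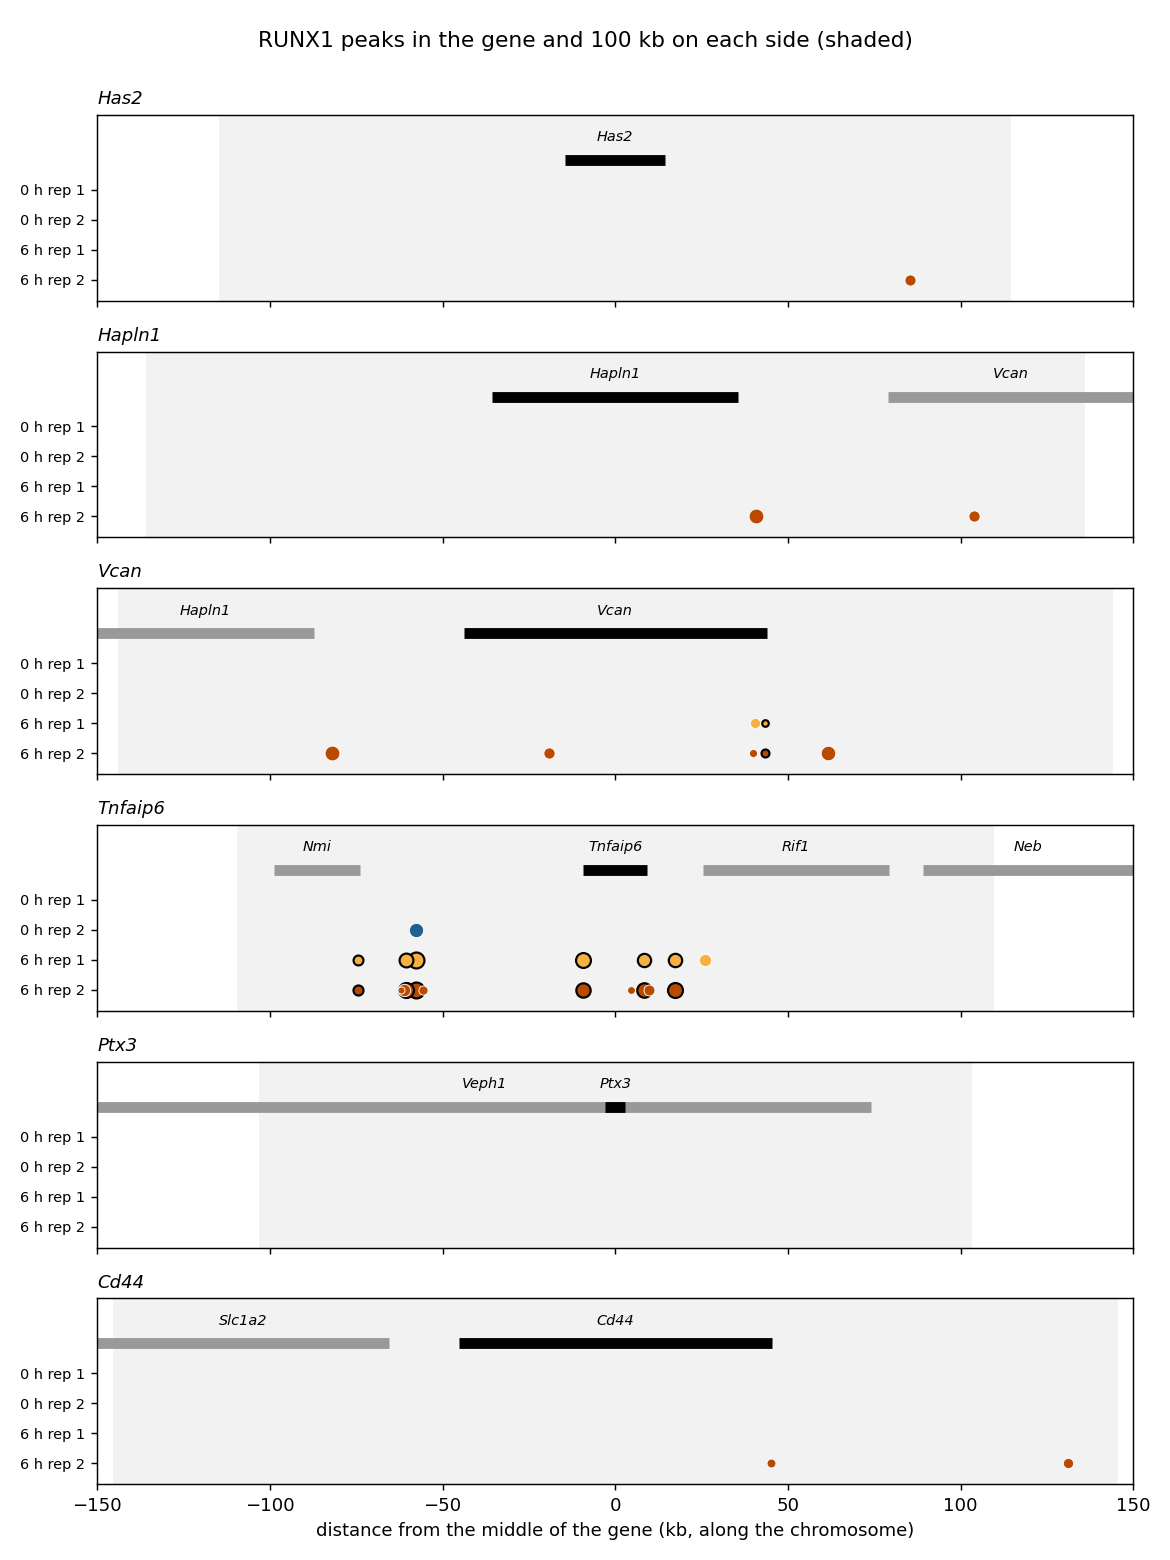
Peaks in the windows of the 6 genes, by library (rows in each panel) and distance from the middle of the gene in kb along the chromosome. Each dot is a peak summit, larger dots have a higher percentile of fold within their list, black outlines mark replicated 6 h regions, black bars the named gene and grey bars other coding genes. Dots of 6 h libraries cluster around Tnfaip6, the single 0 h dot lies between Nmi and Tnfaip6, and the Ptx3 panel is empty.

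Hyaluronan synthesis was represented by Has2 (chr15:56665627-56694546). Its window had 0 peaks in both 0 h libraries and in 6 h replicate 1, and 1 peak in 6 h replicate 2. That peak was remote from the gene, 70833 bp beyond its boundary at the higher coordinate. Has2 had no listed promoter here, so its strand was not available and this boundary is not named 5′ or 3′. The peak had its summit at 56765379, inside the long non-coding gene Gm41327 and 22 bp before the listed start of Gm38516. It had a fold enrichment over local background of 9.76, at percentile 42.8 of its list. No peak of any library lay inside Has2 or within 50 kb of it. The nearest replicated 6 h region was 342827 bp away, at chr15:57037209-57037563, and 11.1% of protein-coding genes were farther from one. Has2 was thus the most remote of the 6 genes.

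The proteoglycan gene Vcan (chr13:89655309-89743027, minus strand) had 0 peaks in either 0 h library, 2 in 6 h replicate 1 and 5 in 6 h replicate 2. Its 1 replicated region, chr13:89742216-89742667, spanned the listed start, with summits 23 and 18 bp before it in replicates 1 and 2. The long non-coding gene Gm4117 also covers this position, so the region cannot be assigned to Vcan alone. The summit pileup was 49 and 59 reads, or 17.8 and 27.7 times the genome-wide background. The fold over local background was only 5.08 and 7.10, at percentiles 7.5 and 16.3, and the local background that enters this fold was 8.84 and 7.45 reads. At a local background raised as much, up to 3.50 times the genome-wide one, a 0 h peak would have needed 12.3 and 12.5 times that background to be called in replicates 1 and 2. A 0 h pileup below this limit would not have been seen.

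Inside Vcan each 6 h library had a further peak a few kb downstream of the start, at 89739570 in replicate 1 and 89739046 in replicate 2. These did not overlap and so formed no replicated region. Replicate 2 alone had a peak at 89680059 inside the gene, at percentile 43.7. It also had one at 89760638, 17611 bp beyond the 5′ end, with a fold of 18.5 at percentile 81.9. By fold, this peak stood above the replicated one at the start, while the pileups, 57 and 59 reads, were close. With peaks restricted to a −log10 q of at least 20, Vcan had no replicated region.

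The link protein gene Hapln1 (chr13:89540529-89611832, plus strand) had 0 peaks in both 0 h libraries and in 6 h replicate 1, and 2 in 6 h replicate 2. The stronger, at chr13:89616852-89617155, had its summit 5191 bp beyond the 3′ end of Hapln1, between it and Vcan. It had a fold of 20.1 at percentile 85.0, and a pileup of 62 reads, 29.1 times the background. Replicate 1 would have needed 18 reads there, or 6.52 times its background, and had no call. The other peak was the one inside Vcan at 89680059. The nearest replicated region was the one at the Vcan start, 130700 bp away, and 20.5% of protein-coding genes were farther from one.

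Tnfaip6 (chr2:52038113-52056681, plus strand), the hyaluronan cross-linking enzyme, was the most densely bound gene of the set. Its window had 0 and 1 peaks at 0 h and 7 and 11 peaks at 6 h in replicates 1 and 2. The groups did not overlap, with more peaks in both 6 h libraries, as held for 73.8% of protein-coding genes. It held 6 replicated 6 h regions, and 23.4% of protein-coding genes had at least that many, so this number was not rare among coding genes. Within 10 kb of the gene the number was 3. With as many peaks taken from each library as the shortest list holds it was 1, and without 6 h replicate 1, when a region is any peak of replicate 2, it was 11. The regions fell at the start site, inside the gene near its 3′ end, downstream, at 2 places between Nmi and Tnfaip6, and inside Nmi.

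At the start, the region chr2:52037832-52038345 had summits 53 and 75 bp before the listed start in 6 h replicates 1 and 2. The pileup was 77 and 70 reads, or 27.9 and 32.9 times the genome-wide background, a mean of 30.4 ± 3.51 (SD, n = 2). Neither 0 h library had a peak, where 7.58 and 7.92 times the background would have sufficed at the same local background. The level at 6 h was 3.52 times the higher 0 h limit or more in both libraries. A value above the limit follows from the choice of a region called at 6 h, and the limit is not a measured 0 h level. Replicated 6 h regions came within 1 kb of an end of 2 of the 6 genes, Tnfaip6 and Vcan, against 37.3% of protein-coding genes.

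At the other end of Tnfaip6, the region chr2:52055628-52055942 lay inside the gene, 914 bp from its 3′ end. Its pileup was 21.7 and 34.3 times the background in replicates 1 and 2. The region chr2:52064511-52064902 lay 8001 bp downstream, between Tnfaip6 and Rif1, with 14.1 and 31.0 times the background. Neither had a 0 h peak, at limits of 8.30 and 8.68 for the first and 6.50 and 6.42 for the second. Replicate 2 was the higher in both regions. It alone also had peaks inside the gene at 52051855 and 631 bp beyond the 3′ end at 52057312, and replicate 1 alone had one inside Rif1 at 52073299.

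The strongest site of the whole set lay upstream, at chr2:51989452-51990115, 48303 bp before Tnfaip6. It was closer to another coding gene, Nmi, an interferon-inducible gene whose 5′ end is 16321 bp away. The site thus lay upstream of the listed starts of both genes. No peak was called there in 0 h replicate 1. The pileup was 47 reads in 0 h replicate 2, 241 in 6 h replicate 1 and 286 in 6 h replicate 2, or 17.7, 87.3 and 134 times the genome-wide background. The summits of both 6 h libraries were at the same base, and the 0 h summit at 51989798 was within the same peak. The 6 h levels were 4.92 and 7.57 times that of 0 h replicate 2, and the limit for a call in 0 h replicate 1 was 8.30 times the background. This was the only site of the 6 windows with a peak at 0 h. Fold enrichment was 41.6 and 60.7 at 6 h, at percentile 99.6 of both lists, and 9.33 at 0 h, at percentile 78.7. The percentiles are ranks within lists of different length and cannot be compared between time points.

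Other peaks lay near this site. A replicated region at chr2:51986682-51987392 lay 51202 bp before Tnfaip6, with a pileup of 17.4 and 42.3 times the background. In replicate 2 the peaks at 51985394, 51986359 and 51991588 stood around these regions without a partner in replicate 1. The remaining replicated region, chr2:51972682-51973063, lay inside Nmi, 295 and 306 bp downstream of the start of that gene, with 13.4 and 18.8 times the background. It falls under the 100 kb rule for Tnfaip6 but is a start-site region of its neighbour.

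**Figure D2:**
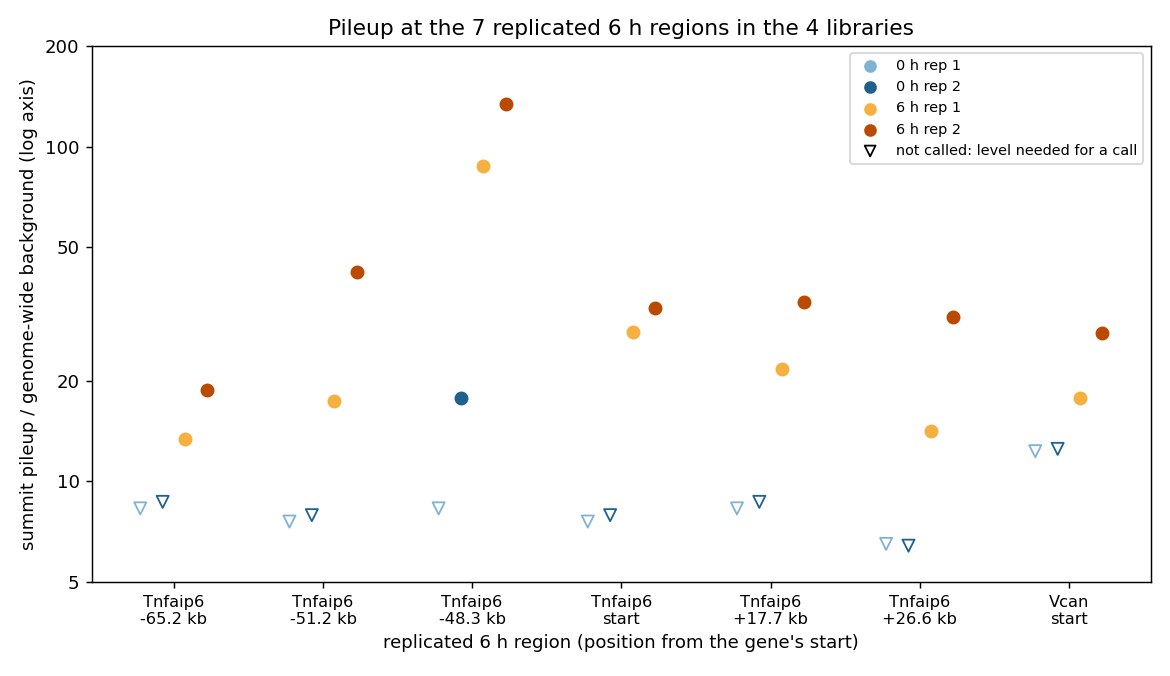
Summit pileup divided by the genome-wide background of the library (log axis) at the 7 replicated 6 h regions, placed by their distance from the start of the gene. Filled dots are called peaks in the 4 libraries and open triangles the level a 0 h library would have needed for a call. At the 6 sites with no 0 h call the regions were chosen by their 6 h calls, which places the 6 h dots above the triangles. The region 48.3 kb before Tnfaip6 stands highest with 87.3 and 134.

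At the 6 replicated regions with no 0 h call, a 6 h value above the 0 h limit follows from the choice of regions called at 6 h, since the level needed for a call was close at both times (6.50 and 6.42 times the background at 0 h, 6.52 and 7.51 at 6 h). Only the size of the gap is a measurement there, and the lower 6 h value was 1.43 times the higher 0 h limit at the Vcan start and 3.52 times at the Tnfaip6 start. Of the 7, 1 overlapped a peak of a 0 h library, as did 16.5% of all 17190 replicated 6 h regions, so the members' count was near that of the genome at large. Relative to background, replicate 2 was above replicate 1 at each of the 7 regions, and it alone had 12 further peaks in the windows against 2 for replicate 1. These sites were picked for the call in 1 library and its absence in the other, so no difference between the replicates is read from them.

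Ptx3 (chr3:66219887-66225806, plus strand) lies within the larger gene Veph1 and had no peak in any of the 4 libraries inside it or within 100 kb. An empty window was found for 17.7% of protein-coding genes. A peak there would have needed at least 16 to 18 reads at its summit, 6.42 to 7.51 times the background of the library, so weaker binding was not detectable. The nearest replicated 6 h region, chr3:65974097-65975092, was 245205 bp away, and 14.3% of protein-coding genes were farther from one.

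The receptor gene Cd44 (chr2:102811141-102901669, minus strand) had 0 peaks in both 0 h libraries and in 6 h replicate 1, and 2 in 6 h replicate 2. The first had its summit at 102901476, inside the gene and 189 bp downstream of the listed start, with a fold of 7.83 at percentile 23.8 and a pileup of 36 reads. Replicate 1 would have needed 23 reads for a call. The second lay 85745 bp away at 102987414, nearer to Pdhx than to Cd44. Binding at the Cd44 start thus rests on 1 library. The nearest replicated 6 h region, chr2:103209347-103210014, was 307948 bp away, and 12.1% of protein-coding genes were farther from one.

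**Figure D3:**
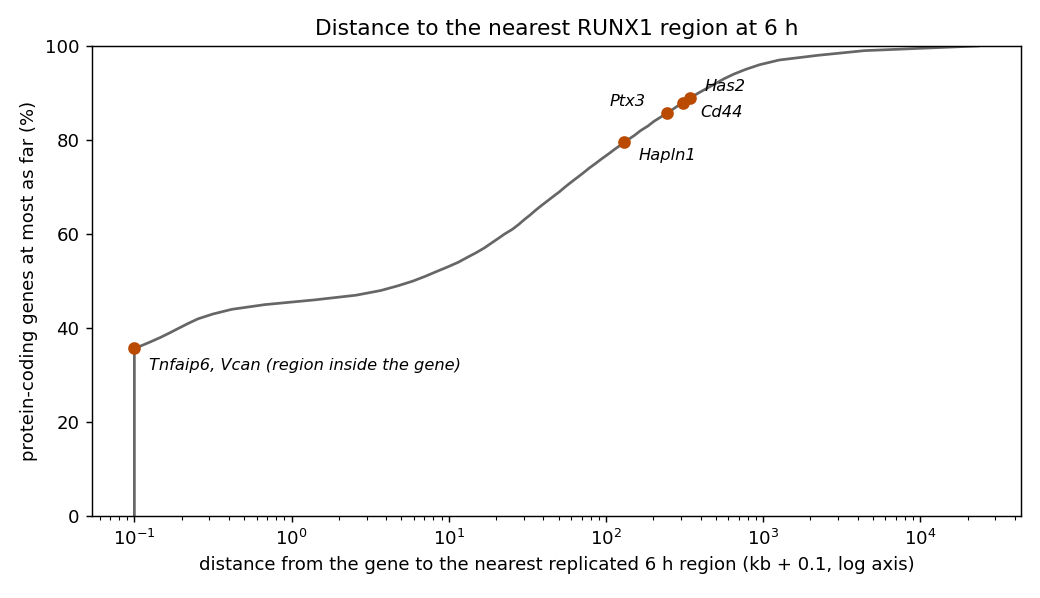
Share of protein-coding genes (percent) whose nearest replicated 6 h region is at most the distance on the x axis (kb plus 0.1, log axis), with the 6 genes as dots. Tnfaip6 and Vcan hold a region themselves, while Hapln1, Ptx3, Cd44 and Has2 lie 131 to 343 kb from one.

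The order of the 6 genes by replicated 6 h regions was Tnfaip6 with 6, Vcan with 1, and Has2, Hapln1, Ptx3 and Cd44 with 0. Tnfaip6 and Vcan were 1 and 0 with equal peak numbers, so the lead of Tnfaip6 was then a single region. The step between Vcan and the genes at 0 is not secure, since Vcan loses its region under a stricter threshold and 3 of the 4 genes at 0, all but Ptx3, had peaks in 6 h replicate 2. The nearest replicated 0 h region was 561 kb from Ptx3 and 896 kb from Tnfaip6, and 1559 to 5401 kb from the other genes of the set.

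**Figure D4:**
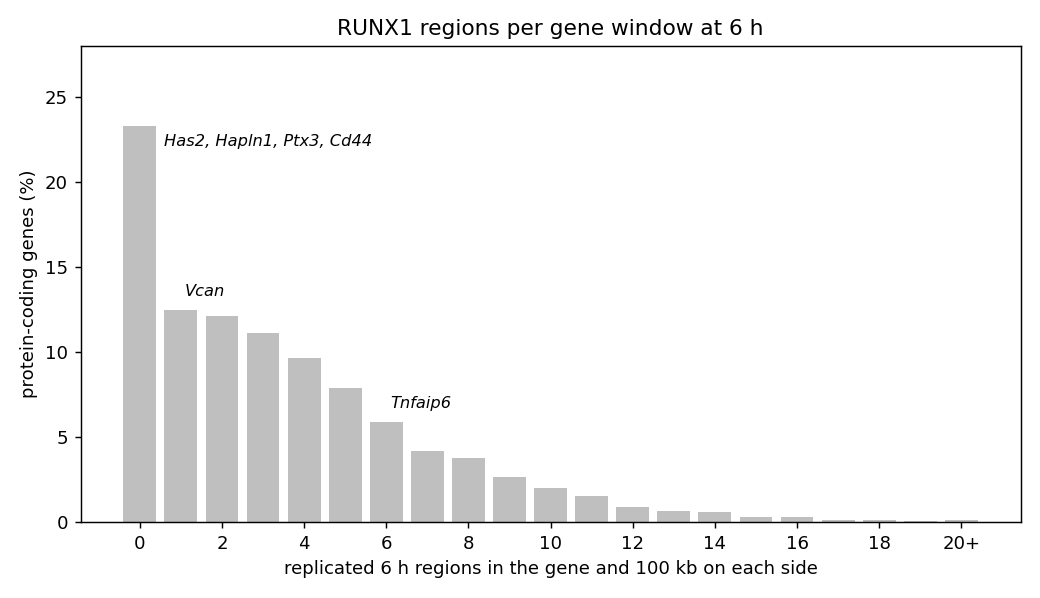
Protein-coding genes (percent, bars) by the number of replicated 6 h regions in the gene and 100 kb on each side, with the 6 genes written at their number. Genes with no region make up 23.3%, and Has2, Hapln1, Ptx3 and Cd44 are among them.

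The other genes of hyaluronan metabolism and the matrix were taken from a list of 35. Of these 33 had a replicated 6 h region in their window, against 76.7% of protein-coding genes, and 7 had a replicated 0 h region, against 13.7%. The median was 3 regions at 6 h, as for all protein-coding genes. A 6 h region came within 1 kb of an end of 12 of the 35 genes, against 37.3% of protein-coding genes. By group these were 5 of 7 synthesis genes, 1 of 11 binding and link proteins, 0 of 6 inter-alpha-trypsin inhibitor genes, 3 of 5 degradation genes and 3 of 6 proteases. Many list members are neighbours and share regions, so these are fewer than 35 independent windows. Of the 7 genes for hyaluronan synthesis and its sugar precursors, 7 had a 6 h region. Has1 and Has3, the other hyaluronan synthases, had 4 and 2 replicated 6 h regions, where Has2 had 0. Of the 11 binding and link proteins 11 had a 6 h region, and the other link protein genes Hapln2, Hapln3 and Hapln4 had 6, 1 and 2. All 6 inter-alpha-trypsin inhibitor genes had a 6 h region, with 1 or 2 each. Of the 6 proteoglycan proteases 4 had one, including 4 at Adamts1, which cleaves versican, and 4 at its neighbour Adamts5, while Adamts15 and Adamts20 had none.

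The 7 genes with a replicated 0 h region were Ugdh, which makes the hyaluronan precursor UDP-glucuronate, Itih1 and Itih3, which lie side by side, the hyaluronan-degrading Cemip, and the adjacent hyaluronidase genes Hyal1, Hyal2 and Hyal3. The windows of Hyal1, Hyal2 and Hyal3 largely coincide, and each held 9 regions at 6 h. The highest-ranking 6 h regions of the list were 62.6 kb from Stab2, a scavenger receptor for hyaluronan, with a fold of 32.1 and 41.3, and inside Cemip, with 21.6 and 37.4. Next came regions 8.81 kb from Hmmr, 97.8 kb from Gfpt1 and 57.1 kb from Ugdh. All of these ranked below the distal Tnfaip6 site in the mean percentile over both 6 h lists, at 98.2, 95.6, 93.3, 92.7 and 89.2 against 99.6.

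Peak numbers over the 4 libraries were also compared gene by gene with the same 35 genes, by the sum of absolute differences. Has2 matched Adamts15 exactly, with a single peak in 6 h replicate 2, and Ptx3 matched Adamts20, with no peak at all. Tnfaip6 was nearest to Adamts9, a difference of 1 peak. Vcan differed by 1 peak from Hapln4, Itih2 and Ambp, and Hapln1 and Cd44 by 1 from Acan and Adamts15. Over only 4 libraries such likeness is a description of peak numbers.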

How the data were processed

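RUNX1 ChIP and pooled input DNA from granulosa cells were sequenced from 1 end with 75 nt reads, per the labels' protocols. Bowtie2 2.2.5, MACS2 and mm10 (GRCm38) are named in the submitters' processing notes. Further settings are not given in the sources used here. The authors deposited 1 peak list per ChIP library, each called against an input, per the peak names in the files. Its deposited fold enrichment, −log10 p and −log10 q are the authors' values and were used only within a list. The deposited score repeats the −log10 p and was not used.

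Groups and replicate numbers come from the titles. Pileup and background were recovered from the fold and −log10 p of each peak (whole-number pileup, misfit of at most 0.005), which succeeded for 100% of peaks in each list. Limits for uncalled sites are the pileup that reaches the lowest −log10 p of the list, assuming the highest ratio of local to genome-wide background seen in the libraries with a call. Peaks of replicates were merged at 1 bp of overlap, and a region was placed by the mean summit of its strongest peak in each library. Gene positions, and strands from the promoter table, are RefSeq's on GRCm38.p6, mitochondrial genes excepted. The tests were exact two-sided permutations over libraries, tried with other thresholds, windows and left-out libraries. Counts of regions and of genes with one, which carry no test, were also tried with other overlaps. The code, in Python 3.11.15 with pandas 2.3.3, numpy 2.4.6 and scipy 1.17.1, was tested on simulated data. All 6 genes are described. The plan named each replicated 0 h region, up to 3 of the highest-ranking 6 h regions per gene and any within 1 kb of an end. The remaining replicated 6 h regions at Tnfaip6 are described too. The members and lists were chosen with earlier results of these data known. Motifs at distal sites were not analysed here.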

Additional observations from a re-analysis of the deposited data

How the results depend on the processing

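The limits come first. With 2 libraries per group the exact permutation test cannot give a p below 0.333, the 0 h lists are short, and a peak is seen only from 6.42 to 7.51 times the genome-wide background upward, by library, and higher where the local background is raised. The log2 difference in peak number kept its direction in all 9 alternatives fitted, crossed pairing aside, as did the difference in peaks per 1000. Leaving out 1 library gave 2.82 to 3.82 and 0.252 to 0.571 per 1000. With the replicate block the exact permutation p was 0.5 for both, the smallest that 2 pairs allow, and the values stayed at 3.32 and 0.412. Same-numbered libraries deviated with a correlation of -0.15 over 805 sites called in all lists, so the block was also run with crossed numbers, an alternative chosen after the data were seen, and it made no call either. The number of genes with a replicated 6 h region fell from 2 to 1 with a −log10 q of at least 20 and with equal peak numbers, Vcan being lost in both. It ranged from 2 to 5 without 1 library, and was 5 without 6 h replicate 1. The number of replicated 6 h regions was 7 and became 1 with equal peak numbers and 4 within 10 kb. Without 1 library it ranged from 7 to 19, the highest being without 6 h replicate 1. At 0 h the counts of genes and of regions were 0 and ranged from 0 to 1, with 1 only without 0 h replicate 1. No value reversed. Of 78 recomputed values for single genes 65 stayed within their limits and 13 moved.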

Other observations

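The motif letters searched in the member promoters were also counted over all RefSeq promoters, as a description. Of the 32851 windows of 250 bases, 3322 held the summit of a replicated 6 h region. TGCGGT, the spelling at the Vcan start, was present in 15.6% of the windows with a summit and 3.92% of those without. TGTGGT, the spelling at the Hapln1 start, was present in 12.1% and 14.3%. The cAMP response element TGACGTCA was present in 4.70% and 1.19%, AP-1 letters in 3.46% and 7.12%, and the NR5A letters AAGGTCA in 2.32% and 4.28%. Windows of neighbouring starts overlap and base composition was not compared between these groups, so their part in these shares was not tested.

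The regions nearest to the genes without one of their own had other neighbours. The region nearest to Ptx3 lay 12653 bp from Ccnl1, a cyclin gene, with a fold of 12.5 and 17.5 at 6 h. That nearest to Cd44 lay inside Gm13869 and 53814 bp from Ehf, with 12.8 and 27.0. The region nearest to Has2 lay 206394 bp from the closest coding gene, Slc22a22, with 11.7 and 19.2.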
